A study of Mus musculus with 2 samples.

Results

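The 10 genes described here code for the glucose transporter *Slc2a1* and for enzymes that carry glucose to pyruvate and lactate: *Hk1*, *Gpi1*, *Pfkp*, *Aldoa*, *Aldoc*, *Pgk1*, *Pkm*, *Ldha* and *Ldhb*. They were chosen by symbol among the 32285 genes listed for each library. A total of 11 rows carry a member symbol, because *Aldoa* has a second row (a longer overlapping gene model, ENSMUSG00000114515). That row held at most 6 unique molecular identifiers (UMIs, each a captured RNA molecule) per class and library and was not tested. Reads that match both models may not be counted, so the level of *Aldoa* is uncertain.

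Cells were taken from the cerebral cortex of mice at embryonic day (E) 16.5. There were 2 libraries in 1 group, both of genotype WT and both from control embryos of the EomesDot line. Tissue was dissociated with papain, and RNA was counted at its 3′ end by 10x Genomics droplet sequencing. No treated or mutant group entered, so the comparisons lie between cell types, each measured in both libraries (n = 2). The fit takes out the overall shift between the libraries. The p-values therefore measure only the remaining spread between these libraries within the classes, pooled over all classes in the fit. How many embryos each library holds is not given by the labels, so this spread may be technical.

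Glycolysis splits glucose into pyruvate in the cytosol and yields ATP without oxygen. Lactate dehydrogenase turns pyruvate into lactate and back, and intermediates of the pathway feed the synthesis of nucleotides, lipids and serine. In the embryonic cortex, radial glia divide at the ventricle and give rise to intermediate progenitors, which produce excitatory neurons. Dividing cells are known to rely strongly on glycolysis, whereas neurons draw more of their ATP from mitochondria, and this background frames the comparison of progenitors with neurons.

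*Slc2a1* (chr4:119108745-119137330, mm10) codes for the glucose transporter GLUT1, which also carries glucose across the blood-brain barrier. *Hk1* (chr10:62268855-62379920) codes for hexokinase, which traps glucose in the cell as glucose 6-phosphate. *Gpi1* (chr7:34201327-34230336) codes for the isomerase that follows it. *Pfkp* (chr13:6579874-6649060) codes for the platelet-type subunit of phosphofructokinase, the committed step of the pathway. *Aldoa* (chr7:126795234-126800994) and *Aldoc* (chr11:78323073-78327781) code for the ubiquitous and the brain aldolase, which split the sugar into a pair of trioses. *Pgk1* (chrX:106187100-106203699) codes for phosphoglycerate kinase, an ATP-producing step. *Pkm* (chr9:59656576-59679372) codes for pyruvate kinase, whose M1 and M2 isoforms differ by an internal exon and cannot be told apart by counts of the 3′ end. *Ldha* (chr7:46842274-46855627) and *Ldhb* (chr6:142490249-142507957) code for the subunits of lactate dehydrogenase, known as the forms of muscle and heart.

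Transcription of several glycolysis genes is known to respond to hypoxia-inducible factors, which bind a short core element. The RefSeq promoter windows of GRCm38.p6, the build named mm10, were searched for ACGTG, a form of this element, on either strand. Each window covered 250 bases before and 50 bases after a start. A CACGTG palindrome counts as 2 matches because it reads the same on both strands. Of 32851 promoters, 6447 (19.6%) held the letters, 8.21% held at least 2 matches and 1.73% at least 3. Of the 16 promoters of the members, 8 held them, and these belonged to 7 of the 10 members. The promoters shown set a promoter of *Ldha* and that of *Pgk1*, which held several matches, beside those of *Ldhb* and *Pfkp*, which held none, and matches are in capitals. *Ldha* (chr7:46845554-46845853, plus strand) held 5 matches, with CACGTG at 2 places, while the other *Ldha* promoter in the table (chr7:46846832-46847131) held 0. *Pgk1* (chrX:106186850-106187149, plus strand) held 2 matches, as did 1 promoter each of *Hk1* and *Pkm*, which are not shown. *Ldhb* lies at chr6:142507908-142508207 on the minus strand and *Pfkp* at chr13:6648722-6649021 on the minus strand.
Ldha: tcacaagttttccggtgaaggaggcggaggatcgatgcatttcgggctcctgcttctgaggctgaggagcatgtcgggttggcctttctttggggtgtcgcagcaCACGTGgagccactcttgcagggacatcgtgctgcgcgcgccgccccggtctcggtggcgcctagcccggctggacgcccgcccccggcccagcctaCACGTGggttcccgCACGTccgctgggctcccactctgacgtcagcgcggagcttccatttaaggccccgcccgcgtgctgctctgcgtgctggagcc
Pgk1: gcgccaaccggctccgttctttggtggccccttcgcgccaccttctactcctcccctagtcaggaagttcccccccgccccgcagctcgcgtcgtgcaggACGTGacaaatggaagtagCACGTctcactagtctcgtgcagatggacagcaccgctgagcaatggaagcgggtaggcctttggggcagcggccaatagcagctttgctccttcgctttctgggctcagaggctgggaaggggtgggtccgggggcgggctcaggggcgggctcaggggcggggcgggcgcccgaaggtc
Ldhb: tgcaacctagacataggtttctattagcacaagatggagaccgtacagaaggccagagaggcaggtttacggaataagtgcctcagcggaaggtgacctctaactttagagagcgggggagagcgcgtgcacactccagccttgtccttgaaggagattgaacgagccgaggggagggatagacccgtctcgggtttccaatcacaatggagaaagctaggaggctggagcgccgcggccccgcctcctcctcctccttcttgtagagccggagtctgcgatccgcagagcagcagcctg
Pfkp: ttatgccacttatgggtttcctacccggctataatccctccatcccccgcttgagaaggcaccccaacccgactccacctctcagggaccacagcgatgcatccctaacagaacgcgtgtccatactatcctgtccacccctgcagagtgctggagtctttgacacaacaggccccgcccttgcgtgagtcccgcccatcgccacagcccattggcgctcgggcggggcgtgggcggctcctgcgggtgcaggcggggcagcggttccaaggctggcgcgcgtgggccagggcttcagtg
A match is a run of letters and not a measured binding site, and a window without one says only that these letters are not in it. GCGTG, another form of the element, was not searched, and it is present in the windows shown for *Ldha*, *Ldhb* and *Pfkp*.

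The files held 46398156 UMIs in 9049 cell barcodes of replicate 1 and 64324236 UMIs in 13556 barcodes of replicate 2, and 40 barcodes occurred in both. Keeping barcodes with 1500 to 60000 UMIs and under 10% mitochondrial UMIs left 5966 and 10247 cells, with medians of 5706 and 4938 UMIs. The libraries differed in barcodes at or over the mitochondrial limit, at 24.5% of replicate 1 and 12.9% of replicate 2. Cells were assigned to classes by gates on marker genes that hold no member, and 67.0% and 63.8% of the cells entered exactly 1 gate. The class names stand for these gates. Of the classes, 12 had at least 50 cells in each library.

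The gates used marker genes, so the marker levels describe the gates and are no test of the names. They are given in CPM (UMIs scaled to 1e6 per sum) of replicate 1 and replicate 2. *Sox2*, a progenitor factor, was at 312 and 292 CPM in radial glia (207 and 315 cells), and *Eomes* at 524 and 522 CPM in intermediate progenitors (410 and 640 cells). *Neurod6* was at 1007 and 1042 CPM in upper-layer-type neurons (1070 and 1991 cells), and *Tle4* at 864 and 628 CPM in deep-layer-type neurons (296 and 456 cells). *Gad2* was at 702 and 609.8 CPM in interneurons of the medial ganglionic eminence (MGE; 322 and 439 cells). It was also at 747 and 642 CPM in striatal-type neurons, and *Lhx6*, which the MGE gate requires, was at 471 and 398 CPM in MGE interneurons. *Cldn5*, a tight junction gene of vessels, was at 4144 and 3879 CPM in endothelial cells (52 and 122 cells). Glial-fated cells (59 and 87 cells) were uneven, with *Cldn5* at 144 CPM in replicate 1 and 13.8 CPM in replicate 2. In erythroid cells (141 and 229 cells) globin RNA took 71.3% and 70.8% of the UMIs, which lowers the CPM of every other gene, and *Neurod6*, a neuronal gene that this class should lack, was still at 100.4 and 84.9 CPM.

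Together the 10 genes took 0.202% and 0.187% of all UMIs in radial glia, against 0.128% and 0.122% in intermediate progenitors. Their share was 0.0931% and 0.0901% in newborn excitatory neurons, 0.0880% and 0.0854% in upper-layer-type neurons, and 0.0718% and 0.0799% in deep-layer-type neurons. Interneurons of the MGE had 0.0586% and 0.0597%, and endothelial cells had 0.214% and 0.232%, the highest mean of the 12 classes. The radial glia libraries lay above those of every neuron class. These are shares of the RNA in a cell, and more of a gene's RNA cannot be told apart from less of the rest.

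**Figure D1:**
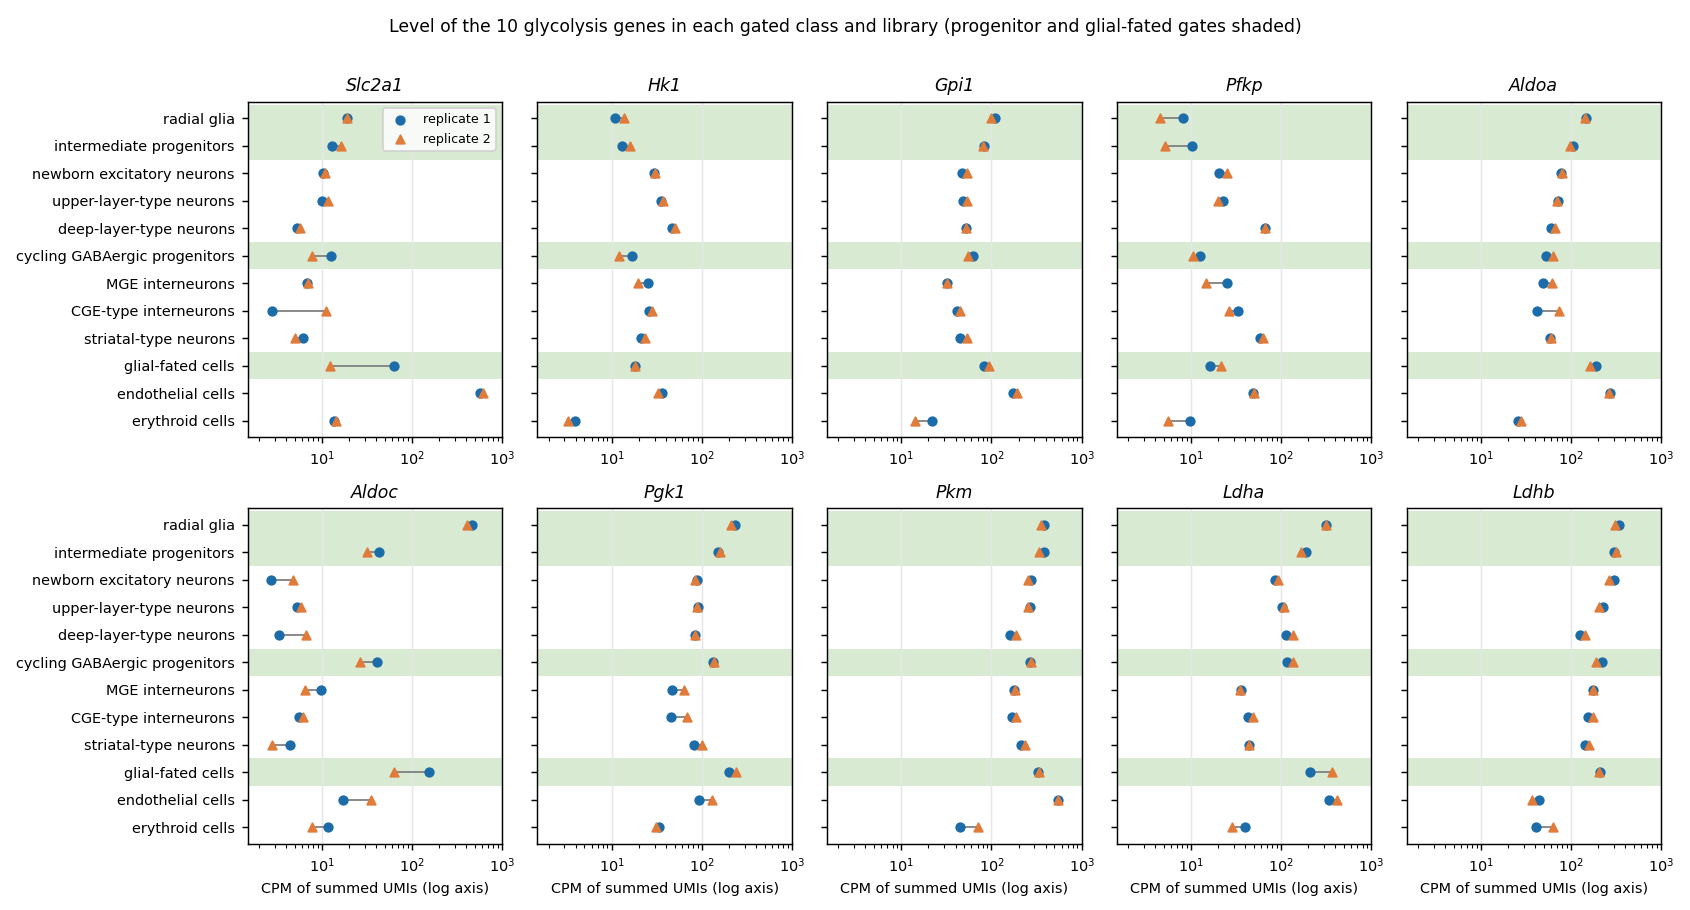
Level of each of the 10 glycolysis genes (x axis, CPM of summed UMIs on a log axis) in the 12 gated classes (y axis), with a circle for replicate 1, a triangle for replicate 2 and the progenitor and glial-fated gates shaded. *Aldoc* stood at 458 and 406 CPM in radial glia and at 9.90 CPM or below in the neuron classes, while *Hk1* and *Pfkp* were higher in neurons than in radial glia. Counts of the 3′ end are not corrected for length, so levels are compared between classes and not between genes.

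Across 11 classes, with erythroid cells left out because globin lowers their CPM, the members differed widely in range. The highest class mean was 119 times the lowest for *Aldoc* and 109 times for *Slc2a1*, against 10.7 for *Ldha*, 10.4 for *Pfkp*, 7.91 for *Ldhb*, 5.68 for *Gpi1*, 4.83 for *Aldoa*, 4.0 for *Pgk1*, 3.98 for *Hk1* and 3.14 for *Pkm*. The classes with the highest mean of all 12 were of 3 kinds: radial glia for *Aldoc*, *Pgk1* and *Ldhb*, endothelial cells for *Slc2a1*, *Gpi1*, *Aldoa*, *Pkm* and *Ldha*, and deep-layer-type neurons for *Hk1* and *Pfkp*. Gates too small to be among the 12 had higher means for 3 of these members: mural cells (9 and 19 cells) for *Hk1* and *Aldoa*, Cajal-Retzius-type cells for *Pfkp* and *Aldoa*, and fibroblasts for *Aldoa*. The lead of radial glia was apart from the next class for *Aldoc*, but the libraries overlapped those of glial-fated cells for *Pgk1* and of intermediate progenitors for *Ldhb*.

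The main comparison asked how the pathway differs between radial glia and excitatory neurons, the latter as an average of the gates for upper and deep layers, on the log scale. All 10 members passed the test (edgeR quasi-likelihood, adjusted p under 0.05 after Benjamini-Hochberg over 14790 genes), 8 higher and 2 lower in radial glia. This contrast separates very different cells, and 59.4% of all genes passed, 29.7% in each direction. The median log2 fold change was 0.95 over the members and -0.05 over all genes. Each member had the same direction in both libraries.

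*Aldoc* differed most. It was at 458 and 406 CPM in radial glia, from 841 and 805 UMIs. The upper-layer-type neurons had 5.31 and 5.83 CPM and the deep-layer-type neurons 3.37 and 6.73 CPM. The groups were far apart, with a log2 fold change of 6.16 ± 0.16 (SE; edgeR adjusted p = 5.2e-25). All 4 neuron values lay below the 11.8 and 7.72 CPM of erythroid cells and are read as background, so the size of the fold depends on a level that may not come from the neurons.

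*Ldha* was at 312 CPM in radial glia in both libraries. It was at 101 and 107 CPM in upper-layer-type and at 114 and 135 CPM in deep-layer-type neurons, without overlap with radial glia, and the difference was 1.34 ± 0.11 (log2, SE; edgeR adjusted p = 8.01e-13), a 2.53-fold higher level. Its partner *Ldhb* was at 339 and 307 CPM in radial glia, 225 and 203 CPM in upper-layer-type and 127 and 143 CPM in deep-layer-type neurons. The groups did not overlap, and the difference was 0.81 ± 0.09 (log2, SE; edgeR adjusted p = 4.4e-09).

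*Pgk1* was at 233 and 210.1 CPM in radial glia, 90.6 and 89.4 CPM in upper-layer-type and 84.3 and 84.7 CPM in deep-layer-type neurons. Both neuron classes lay well below radial glia in each library, by a log2 difference of 1.23 ± 0.10 (SE; edgeR adjusted p = 3.6e-12). *Aldoa* was at 148 and 144 CPM in radial glia, 71.4 and 69.5 CPM in upper-layer-type and 60.2 and 65.9 CPM in deep-layer-type neurons. It was 2.02-fold higher in radial glia (edgeR adjusted p = 1.7e-09), again with no overlap.

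*Gpi1* was at 109 and 98.8 CPM in radial glia and between 48.9 and 53.8 CPM in the 4 neuron sums, a log2 difference of 0.89 ± 0.11 (SE; edgeR adjusted p = 8.8e-09). *Pkm* was at 386 and 355 CPM in radial glia, 269.5 and 257 CPM in upper-layer-type and 159.9 and 189 CPM in deep-layer-type neurons. The 0.67 ± 0.09 higher log2 level of *Pkm* (SE; edgeR adjusted p = 1.1e-07) was the smallest among the 8 members that were higher. *Slc2a1* was at 19.1 CPM in both libraries of radial glia, 9.98 and 11.8 CPM in upper-layer-type and 5.30 and 5.67 CPM in deep-layer-type neurons. Its log2 difference of 1.17 ± 0.31 (SE; edgeR adjusted p = 0.00142) rested on 35 and 38 UMIs in radial glia, and all 4 neuron values lay below the 13.8 and 14.3 CPM of erythroid cells.

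*Hk1* and *Pfkp*, which code for enzymes of the phosphorylation steps before the sugar is split, went the other way. *Hk1* was at 10.9 and 13.6 CPM in radial glia, 35.6 and 37.4 CPM in upper-layer-type and 46.7 and 50.7 CPM in deep-layer-type neurons, lower in radial glia by a log2 difference of -1.89 ± 0.18 (SE; edgeR adjusted p = 4.95e-11). *Pfkp* was at 8.17 and 4.53 CPM in radial glia, 22.8 and 19.7 CPM in upper-layer-type and 66.0 and 66.3 CPM in deep-layer-type neurons. Radial glia lay below every neuron sum, by -2.68 ± 0.25 (log2, SE; edgeR adjusted p = 7.4e-11). In each library they also lay below erythroid cells, at 9.84 and 5.51 CPM, so the size of this fold too depends on a level that may be background. When every cell was thinned to 1500 UMIs the difference of *Pfkp* was -1.84.

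**Figure D2:**
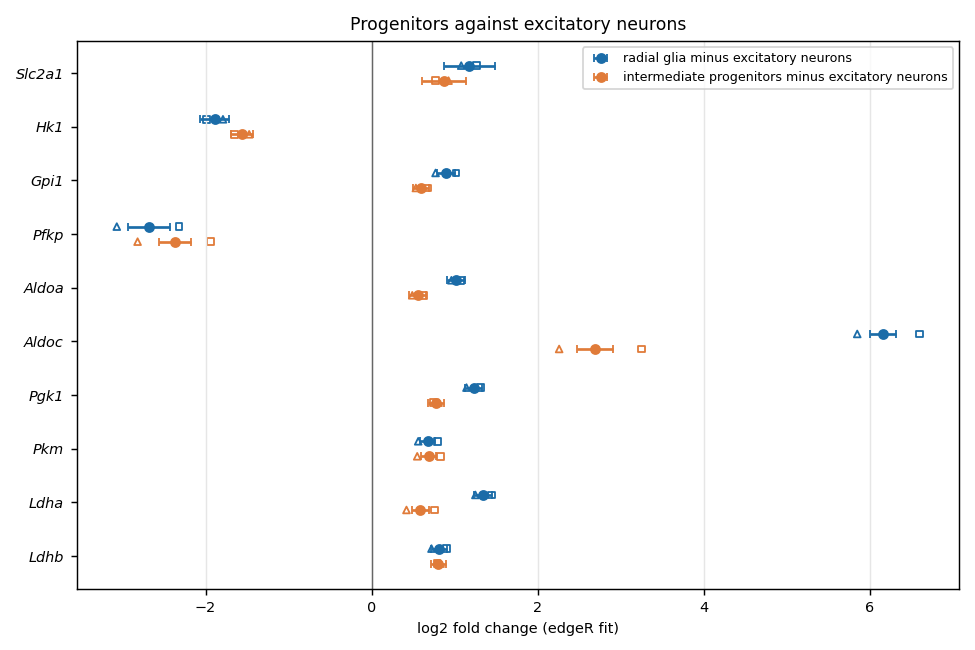
Log2 fold change (x axis) of each member (y axis) in radial glia (blue) and in intermediate progenitors (orange) against the same excitatory neurons, as filled circles with bars of 1 SE from the edgeR fit, with open squares for replicate 1 and open triangles for replicate 2. In both progenitor classes 8 members lay above 0 in both libraries, and *Hk1* and *Pfkp* lay below.

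Intermediate progenitors were compared with the same neuron sums, so both comparisons share their neurons. Again 10 members passed, 8 higher and 2 lower, against 53.6% of all genes (27.3% higher, 26.3% lower), with a median log2 fold change of 0.64 for the members and -0.01 for all genes. *Aldoc*, at 43.0 and 31.8 CPM, was higher than in neurons by 2.69 ± 0.22 (log2, SE; edgeR adjusted p = 2.6e-12), or 2.01 after thinning. *Ldhb* at 299 and 315 CPM (0.80 ± 0.09), *Pgk1* at 150.4 and 158 CPM (0.78 ± 0.10), *Pkm* at 379 and 334 CPM (0.68 ± 0.09) and *Gpi1* at 82.1 and 79.6 CPM (0.60 ± 0.10) were higher too, and all lay above the neuron sums. *Ldha* was at 186 and 167 CPM, below radial glia and above neurons in both libraries, with a log2 difference from neurons of 0.59 ± 0.10 (SE; edgeR adjusted p = 1.5e-05). *Hk1*, at 13.2 and 16.1 CPM, was lower by -1.56 ± 0.13 (-2.58 after thinning), and *Pfkp*, at 10.2 and 5.16 CPM and so near the erythroid level, by -2.37 ± 0.19. *Aldoa*, at 104 and 98.7 CPM, was higher by 0.56 ± 0.10 (edgeR adjusted p = 3.4e-05). *Slc2a1* was at 12.9 and 16.3 CPM, near the 13.8 and 14.3 CPM of erythroid cells, so this level too may be background. Its call (0.87 ± 0.26, edgeR adjusted p = 0.00612) was lost at a mitochondrial limit of 5% (adjusted p = 0.0702).

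Between radial glia and intermediate progenitors, 5 members were higher in radial glia and none was lower (0 members also by edgeR at an unadjusted p under 0.05 and 0 by DESeq2), against 37.3% of all genes (19.2% higher, 18.1% lower). The median log2 fold change was 0.30 over the members and -0.01 over all genes. *Aldoc* was 11.1-fold higher in radial glia (3.47 ± 0.16 log2, SE; edgeR adjusted p = 4.6e-18). *Ldha* (0.76 ± 0.12, adjusted p = 5.3e-06), *Aldoa* (0.46 ± 0.12, adjusted p = 0.00303) and *Pgk1* (0.45 ± 0.11, adjusted p = 0.00178) were also higher. *Gpi1* was at the border (0.29 ± 0.11, adjusted p = 0.0417) and was lost without the library as a block (adjusted p = 0.0554), with no filter on low counts, with doublets removed, with stricter gates and after thinning, and *Pgk1* was lost after thinning (0.14). The intervals of the others ran from -0.20 to 0.21 for *Ldhb*, -0.21 to 0.19 for *Pkm*, -0.28 to 0.88 for *Slc2a1*, -0.78 to 0.12 for *Hk1* and -1.04 to 0.42 for *Pfkp* (95%, log2).

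The share of dividing cells differed between these gates. Cells with UMIs of at least 3 of 15 cell cycle genes made up 130 of 207 and 175 of 315 radial glia, but 90 of 410 and 163 of 640 intermediate progenitors. In an alternative chosen after seeing the data, both gates were limited to such cycling cells. Against neurons, 10 members were then called in radial glia and 9 in intermediate progenitors, where *Aldoa* did not pass (0.18, adjusted p = 0.358), beside 56.0% and 49.3% of the 14598 genes tested. Between the progenitors, calls over all genes went from 37.3% to 18.2% and those of members from 5 to 1, which was *Aldoc* (2.84), and *Ldha* (0.22, adjusted p = 0.283), *Aldoa* (0.38, adjusted p = 0.172), *Pgk1* (0.11, adjusted p = 0.653) and *Gpi1* (0.29, adjusted p = 0.243) did not pass. Among intermediate progenitors, *Ldha* was at 259 and 232 CPM in cycling cells and at 146 and 134 CPM in non-cycling cells (at most 1 cycle gene), with no overlap and no test. *Pgk1* was likewise at 189 and 203 CPM against 131 and 137 CPM. *Ldhb* had the opposite order, with 207 and 254 CPM in cycling and 343 and 338 CPM in non-cycling intermediate progenitors.

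Within radial glia, 2 members passed between cycling and non-cycling cells (55 and 102 non-cycling cells), both lower in cycling cells, against 9.15% of 14721 genes (5.73% higher, 3.42% lower). The members' median was -0.28 and that of all genes -0.01. *Aldoa* was at 118 and 91.6 CPM in cycling and at 199 and 228 CPM in non-cycling radial glia. Its log2 difference of -1.0 ± 0.18 (SE; edgeR adjusted p = 9.95e-05) was -0.84 after thinning (adjusted p = 0.0871). *Ldhb* was at 286 and 278 CPM in cycling and at 489 and 376 CPM in non-cycling cells, without overlap (-0.57 ± 0.14, SE; edgeR adjusted p = 0.00392). *Ldha* was at 298 and 297 CPM against 297 and 305 CPM, a log2 difference of 0.02 with a 95% interval of -0.28 to 0.32. Cycling radial glia were deeper, with median UMIs of 9719.5 and 6082 against 6547 and 4214.5, and the part of depth in these differences beyond the thinned values was not tested.

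The newborn gate (*Neurod1*-positive, 605 and 804 cells) holds the step after the last division. Of the members, 5 passed against the more mature excitatory neurons, 2 higher and 3 lower, beside 15% of all genes (7.19% higher, 7.78% lower), and their median of -0.01 was close to the 0.00 of all genes. *Ldhb* was at 297 and 262 CPM in newborn neurons, above both neuron gates in each library, by 0.73 ± 0.09 (log2, SE; edgeR adjusted p = 1.5e-07). *Ldha* was at 86.2 and 92.9 CPM, below both neuron gates (-0.33 ± 0.11, adjusted p = 0.0361), a call lost without the library block (adjusted p = 0.0811), after thinning and with DESeq2 (adjusted p = 0.0599). *Pkm*, at 272 and 257 CPM, overlapped the upper-layer-type neurons and lay above the deep-layer-type neurons alone. It was higher by 0.31 ± 0.09 (edgeR adjusted p = 0.0116) than their mean, a call lost at the mitochondrial limit of 5% (adjusted p = 0.131). *Hk1*, at 29.5 and 30.3 CPM, lay between progenitors and neurons and was lower than in neurons by -0.49 ± 0.11 (adjusted p = 0.00191). *Pfkp*, at 20.7 and 24.8 CPM, was lower by -0.70 ± 0.14 (edgeR adjusted p = 0.000439) than the mean of the neuron gates, overlapped the upper-layer-type neurons, and was at -0.23 after thinning (adjusted p = 0.661).

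The upper-layer and deep-layer gates, which the excitatory class averages, were themselves unequal. *Pfkp* was at 22.8 and 19.7 CPM in the former and at 66.0 and 66.3 CPM in the latter, with no overlap. *Hk1* was also higher in deep-layer-type neurons, while *Slc2a1*, *Aldoa*, *Pgk1*, *Pkm* and *Ldhb* were higher in upper-layer-type neurons in both libraries without overlap. *Ldha* was at 101 and 107 CPM in upper-layer-type and at 114 and 135 CPM in deep-layer-type neurons. No test was planned between these gates, and the values are a description.

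On the inhibitory side, MGE interneurons are GABAergic cells that enter the cortex from the ventral telencephalon. Against excitatory neurons, 6 members were lower and none was higher (0 also by edgeR at an unadjusted p under 0.05 and 0 by DESeq2), beside 12.8% of all genes lower and 25.0% called in all, and the median was -0.48 for the members and -0.02 for all genes. *Ldha* was at 35.8 and 34.5 CPM in MGE interneurons, against 101 to 135 CPM in the 4 excitatory sums. With no overlap, it was 0.299-fold of the excitatory level (log2 difference of -1.74 ± 0.17, SE; edgeR adjusted p = 3.7e-10). Erythroid cells had 39.4 and 28.7 CPM of *Ldha*, so the MGE level may be background, and the size of this fold depends on it. *Ldhb*, at 177 and 175 CPM, lay between the upper-layer and deep-layer gates, with a difference of 0.01 and a 95% interval of -0.19 to 0.21. Interneurons of the caudal ganglionic eminence (CGE-type, 238 and 343 cells) had *Ldha* at 42.6 and 48.4 CPM and striatal-type neurons (229 and 379 cells) at 44.2 and 44.0 CPM, also below every excitatory sum.

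*Hk1* was at 25.1 and 19.4 CPM in MGE interneurons, below both excitatory gates, by -0.99 ± 0.16 (log2, SE; edgeR adjusted p = 1.5e-05). *Gpi1* (32.0 and 32.3 CPM, -0.72 ± 0.15, adjusted p = 0.000258) and *Pgk1* (47.2 and 63.6 CPM, -0.67 ± 0.14, adjusted p = 0.000402) were below both gates as well, and both calls were lost after thinning. *Pfkp*, at 25.1 and 14.6 CPM, was unequal between the libraries, overlapped the upper-layer-type neurons and lay below the deep-layer-type neurons alone. Its difference of -1.01 ± 0.21 (edgeR adjusted p = 0.0003) became -0.55 at the mitochondrial limit of 5% (adjusted p = 0.283) and was not called after thinning. *Pkm* (-0.29 ± 0.10, adjusted p = 0.0367) was lost without the library block (adjusted p = 0.0609), with another normalization (adjusted p = 0.0546), at the mitochondrial limit of 5% and after thinning. MGE interneurons were shallower than excitatory neurons, with median UMIs of 3415 and 3745 against 6747.5 and 5440 in upper-layer-type neurons, and after thinning *Ldha* and *Hk1* were the members still called.

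Cycling GABAergic progenitors (281 and 485 cells) were compared with MGE interneurons as the matching step on the inhibitory side. They were gated on *Gad* and *Dlx* genes and cell cycle genes without a regional marker, so their descendants need not be MGE interneurons. Of the members, 7 passed, 5 higher and 2 lower in progenitors, beside 39.5% of all genes (20% higher, 19.5% lower), with a median of 0.49 for the members and -0.02 for all genes. *Ldha* was at 117 and 134 CPM in progenitors and at 35.8 and 34.5 CPM in MGE interneurons, 3.49-fold higher (1.80 ± 0.18 log2, SE; edgeR adjusted p = 1.02e-09). The size of this fold depends on the MGE level, which was near that of erythroid cells and may be background. *Pgk1* was at 134 and 137 CPM against 47.2 and 63.6 CPM (1.22 ± 0.15, adjusted p = 5.04e-08). *Pkm* was at 264 and 273 CPM against 178 and 182 CPM (0.53 ± 0.12, adjusted p = 0.000355). For all 3 genes, the libraries of the progenitors lay above those of the neurons.

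*Gpi1* was at 62.8 and 55.1 CPM in GABAergic progenitors against 32.0 and 32.3 CPM (0.82 ± 0.16, edgeR adjusted p = 0.000121), and the call was lost after thinning (0.50, adjusted p = 0.254). *Hk1*, at 16.7 and 12 CPM, was lower in progenitors (-0.68 ± 0.23, adjusted p = 0.0169), and so was *Pfkp* at 12.6 and 10.4 CPM (-0.79 ± 0.30, adjusted p = 0.0331). Neither was called at the mitochondrial limit of 5% or after thinning, where *Pfkp* was at -0.20. *Aldoa* was at 52.6 and 63.3 CPM against 48.7 and 62.0 CPM, so the libraries overlapped and the difference was 0.02 with a 95% interval of -0.31 to 0.34. *Ldhb* was at 219 and 188 CPM against 177 and 175 CPM (0.16, 95% interval of -0.07 to 0.39).

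*Aldoc* in the GABAergic progenitors depended on possible doublets. It was at 40.9 and 26.6 CPM, against 9.90 and 6.47 CPM in MGE interneurons (2.0 ± 0.35 log2, SE; edgeR adjusted p = 2.6e-05). Removing the cells with the highest doublet scores took 32 and 75 of the progenitors, and these cells held 75 of the 88 and 51 of the 82 *Aldoc* UMIs. The level was then 7.33 and 12.4 CPM, and the difference 0.30 (adjusted p = 0.640). After thinning the difference was 1.09 (adjusted p = 0.105) and was not called either. In radial glia the same removal left *Aldoc* at 460.0 and 406 CPM, and *Ldha* in the GABAergic progenitors at 113 and 135 CPM. Intermediate progenitors were left with *Aldoc* at 43.4 and 24.0 CPM. In replicate 2 the 70 cells removed from them had held 55 of the 148 *Aldoc* UMIs.

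Whether progenitors and neurons differed by the same amount on each side was tested as 1 contrast, with the mean of radial glia and intermediate progenitors as the excitatory progenitors. Of the members, 6 passed, 3 in each direction, beside 19.4% of all genes (11.4% higher, 8.01% lower), and the median was -0.04 for the members and 0.06 for all genes. *Ldha* was higher in progenitors by 0.96 (log2) on the excitatory and by 1.80 on the inhibitory side, a difference of 0.84 ± 0.21 (SE; edgeR adjusted p = 0.00386). The size of this difference depends on the level of *Ldha* in MGE interneurons, which may be background. *Ldhb* was higher by 0.81 and 0.16, a difference of -0.65 ± 0.14 (adjusted p = 0.000894), and *Aldoa* by 0.78 and 0.02, a difference of -0.77 ± 0.19 (adjusted p = 0.00334). *Hk1* was lower by -1.73 and -0.68 and *Pfkp* by -2.53 and -0.79, so both differed less on the inhibitory side (1.05 ± 0.26, adjusted p = 0.00389, and 1.74 ± 0.36, adjusted p = 0.000475). *Aldoc* differed by 4.42 and 2.0 (-2.43 ± 0.52, adjusted p = 0.00074), with the limit on doublets given for it.

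*Pgk1* (1.0 and 1.22), *Gpi1* (0.74 and 0.82) and *Pkm* (0.68 and 0.53) had differences of the same sign on both sides, and the 95% intervals of the contrast were -0.13 to 0.56, -0.29 to 0.44 and -0.42 to 0.12. The GABAergic gate requires cycling cells. With the excitatory progenitors limited to cycling cells, *Ldha* (0.64, adjusted p = 0.0361), *Hk1* (1.59), *Pfkp* (1.86) and *Aldoc* (-2.65) were still called, beside 15.3% of all genes, whereas *Aldoa* (-0.34, adjusted p = 0.371) and *Ldhb* (-0.35, adjusted p = 0.124) were not. *Hk1*, *Pfkp* and *Aldoc* were not called at the mitochondrial limit of 5%, nor *Hk1* and *Ldha* after thinning. For *Pfkp* the value was 1.11 in replicate 1 and 2.42 in replicate 2.

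**Figure D3:**
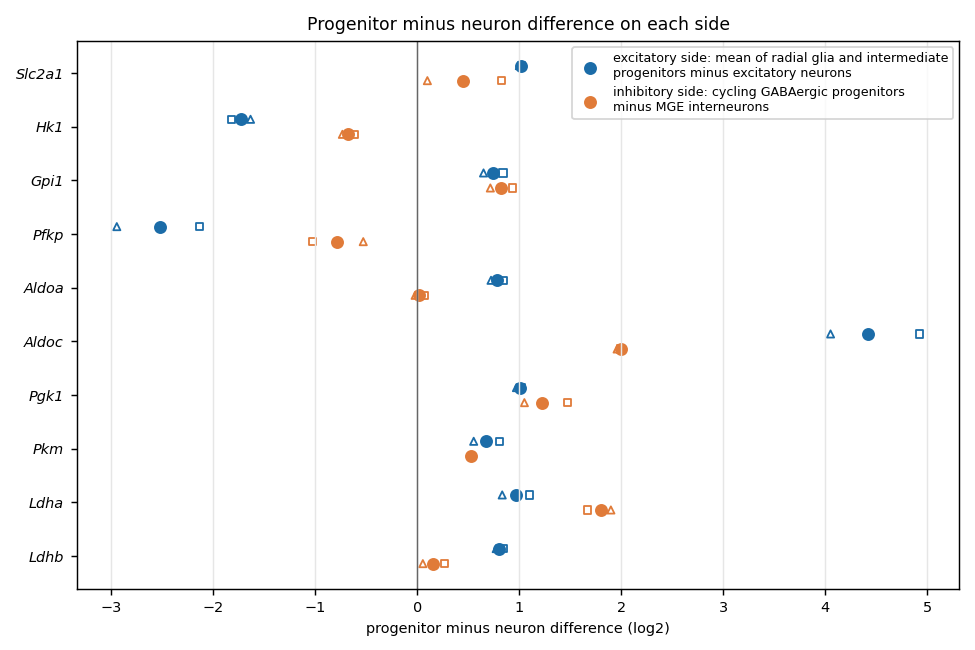
Progenitor minus neuron difference (x axis, log2) of each member (y axis) on the excitatory side (blue) and the inhibitory side (orange), as filled circles from the fit with open squares for replicate 1 and open triangles for replicate 2. *Ldha* lay farther right on the inhibitory side, while *Ldhb* and *Aldoa* lay near 0 there, and *Hk1* and *Pfkp* lay left of 0 on both sides.

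Several steps of glycolysis are served by more than 1 gene, and the share of each within its set was compared between classes. Shares are of UMIs within each library, intervals are exact binomial at 95% and cover counting error only, and 3′ counts of different genes are not corrected for length or capture, so a share is read between classes alone. *Ldha* made up 47.9% (45.1 to 50.8) and 50.4% (47.6 to 53.2) of the UMIs of *Ldha* and *Ldhb* in radial glia. It made up 38.4% and 34.6% in intermediate progenitors and 22.5% and 26.2% in newborn neurons. The share was then higher in upper-layer-type neurons, at 31.0% and 34.4%, and in deep-layer-type neurons, at 47.3% and 48.6%, each within the counting interval of the same library of radial glia. MGE interneurons had 16.8% (12.6 to 21.7) and 16.5% (12.9 to 20.6), and endothelial cells 88.3% and 91.8%. *Ldha* in MGE interneurons and *Ldhb* in endothelial cells were near or below their erythroid levels, so these shares may hold background.

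*Aldoa* made up 24.4% and 26.2% of the aldolase UMIs of radial glia, 70.7% and 75.6% of those of intermediate progenitors, and at least 90.7% in each library of newborn, upper-layer-type and deep-layer-type neurons. *Hk1* made up 29.4% and 26.2% of the UMIs of *Hk1* and *Hk2* in radial glia, 45.4% and 53.6% in intermediate progenitors and 89.6% and 86.3% in upper-layer-type neurons. *Hk2* codes for another mitochondria-bound hexokinase. On the inhibitory side *Hk1* made up 49.3% and 42.5% in cycling progenitors, and all 33 UMIs of replicate 1 and 87.8% of 41 UMIs of replicate 2 in MGE interneurons. The hexokinase shares of progenitors and neurons did not overlap on either side.

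*Pfkp* made up 9.93% and 5.59% of phosphofructokinase UMIs (*Pfkp*, *Pfkl* and *Pfkm*) in radial glia, 29.8% and 25.5% in upper-layer-type and 55.2% and 56.0% in deep-layer-type neurons. Striatal-type neurons had nearly equal shares of 56.9% in both libraries. *Slc2a1* made up 74.5% and 80.9% of the UMIs of *Slc2a1* and *Slc2a3*, the latter coding for the glucose transporter GLUT3 of neurons, in radial glia. In deep-layer-type neurons it made up 17.7% (9.2 to 29.5) and 24.2% (14.5 to 36.4). Radial glia were thus above the neurons for *Slc2a1* and below them for *Hk1* and *Pfkp*.

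**Figure D4:**
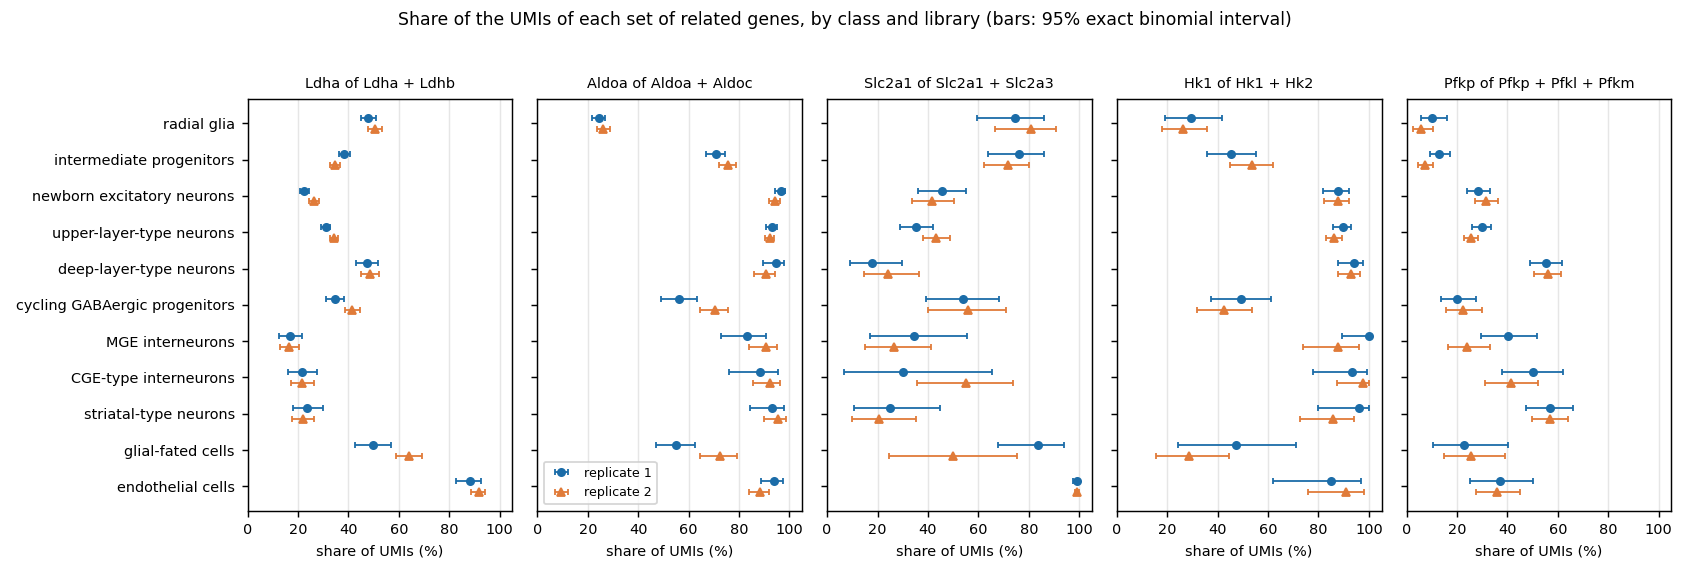
Share of UMIs (x axis, %) of *Ldha*, *Aldoa*, *Slc2a1*, *Hk1* and *Pfkp* within its set of related genes in 11 gated classes (y axis, erythroid cells left out), with circles for replicate 1, triangles for replicate 2 and bars for the 95% exact binomial interval. *Aldoa* was at 24.4% and 26.2% in radial glia and at 90.7% or more in the excitatory neurons, while *Hk1* and *Pfkp* had lower shares in radial glia than in excitatory neurons.

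The other genes of the pathway moved in both directions. Of 21 further glycolysis genes, 17 were tested between radial glia and excitatory neurons, and 6 were higher and 8 lower, against 29.7% of all genes in each direction, with a median of 0.29. *Hk2* was higher by 2.82 ± 0.29 (log2, SE), at 32.2 against 4.21 CPM (means of 2 libraries). *Eno2*, the enolase of neurons, was lower by -2.43 ± 0.48, *Slc2a3* by -1.87 ± 0.30 and *Pfkfb2*, whose enzyme sets the level of an activator of phosphofructokinase, by -1.50 ± 0.26. The mean of *Eno2* in radial glia was 2.06 CPM. Its log2 ratio was -3.36 in replicate 1 and -1.66 in replicate 2, so the size of its fold is uncertain. The other 5 that were higher were *Eno1* (1.48), *Tpi1* (1.40), *Gapdh* (1.05), *Pgam1* (1.05) and *Pfkl* (0.84), which code for enzymes at the same steps as, or between, those of the members. Among the others that were lower were *Ldhd* (-1.66), *Pfkfb4* (-1.44), *Pfkfb3* (-0.58) and *Pfkm* (-0.57). These genes are named after their values were seen. *Gapdh* and several members have near-identical copies in the genome that can share reads, so their levels are uncertain.

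In intermediate progenitors 6 of the 17 were higher and 7 lower than in neurons, against 27.3% and 26.3% of all genes, and *Hk2* was again higher (1.78 ± 0.29) with *Slc2a3* (-1.83 ± 0.23), *Eno2* (-1.80 ± 0.35) and *Pfkfb4* (-1.44 ± 0.21) lower. Between radial glia and intermediate progenitors 4 were higher and 1 lower, against 19.2% and 18.1% of all genes. *Hk2* (1.04 ± 0.29), *Eno1* (0.83 ± 0.11) and *Pgam1* (0.69 ± 0.10) were among those higher in radial glia, and *Pfkfb2* (-1.06 ± 0.30) was lower. In MGE interneurons 1 was higher and 6 lower than in excitatory neurons, against 12.2% and 12.8% of all genes, with *Tpi1* (-0.87 ± 0.14), *Pfkfb3* (-0.81 ± 0.23) and *Eno1* (-0.66 ± 0.14) lower and *Bpgm* (0.58 ± 0.20) higher. In GABAergic progenitors 5 were higher and 6 lower than in MGE interneurons, against 20% and 19.5% of all genes, led by *Hk2* (3.34 ± 0.57, 16.7 against 1.35 CPM). The log2 ratio of *Hk2* was 6.47 in replicate 1 and 2.46 in replicate 2, so the size of its fold is uncertain. *Gapdh* was higher there by 1.16 ± 0.11, and *Pfkfb2* (-1.85 ± 0.30) and *Pfkfb4* (-1.56 ± 0.33) were lower. None of the 17 passed in the newborn comparison or in the contrast between the sides by edgeR. In the newborn comparison 1 was higher and 4 were lower at an unadjusted p under 0.05, and DESeq2 called 1 as lower. In the contrast between the sides 3 had a lower value at an unadjusted p under 0.05, and DESeq2 called 0.

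Serine is made from 3-phosphoglycerate, an intermediate of glycolysis. All 5 genes of this branch were higher in radial glia than in excitatory neurons (median 3.48), against 29.7% of all genes, among them *Phgdh*, its entry enzyme, at 549.8 against 7.64 CPM (6.02 ± 0.14 log2, SE). *Psat1* (4.83 ± 0.18) and *Psph* (3.48 ± 0.14) followed. All 5 were also higher in intermediate progenitors (median 1.33; 27.3% of all genes) and, against MGE interneurons, in GABAergic progenitors (median 2.95; 20% of all genes). Of the 7 tested genes of the pentose phosphate pathway, which branches off at glucose 6-phosphate, 4 were higher and none lower in radial glia, against 29.7% of all genes in each direction, among them *Pgd* (1.27 ± 0.19) and *Tkt* (1.12 ± 0.10). In intermediate progenitors 5 of the 7 were higher, against 27.3% of all genes, and 0 were lower in either class by edgeR at an unadjusted p under 0.05 or by DESeq2.

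Of 15 tested genes that handle pyruvate and lactate, 4 were higher and 1 lower in radial glia, against 29.7% of all genes in each direction, so the share that was higher is near that of all genes. The lower gene was *Slc16a7*, which codes for the monocarboxylate transporter MCT2, at 10.8 against 79.6 CPM (-2.99 ± 0.22 log2, SE), and *Pcx*, coding for pyruvate carboxylase, was higher by 2.55 ± 0.23. *Slc16a7* was also lower in MGE interneurons than in excitatory neurons (-1.68 ± 0.19). Of 13 tested hypoxia response genes, 4 were higher and 1 lower in radial glia, and the share that was higher is close to the 29.7% of all genes. *Egln3* was higher by 4.91 ± 0.29, *Vegfa* by 0.92 ± 0.17 and *P4ha1* by 0.61 ± 0.15, while *Ndrg1* was lower by -4.10 ± 0.32. The median of this list was 0.15, against 0.95 for the members.

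Endothelial cells had the highest mean level of 5 members among the 12 classes with enough cells for a test. Against excitatory neurons, 7 members were higher and 1 lower, beside 51.3% of all genes (24.3% higher, 27.0% lower), with a median of 1.51 for the members and -0.14 for all genes. *Slc2a1* was at 573 and 621 CPM, 74.9-fold higher than in neurons (6.23 ± 0.17 log2, SE; edgeR adjusted p = 1.7e-24). The size of this fold depends on neuron values that lay below those of erythroid cells and may be background. *Aldoa*, at 269 and 266 CPM, was higher by 1.97 ± 0.12, *Gpi1*, at 174 and 191 CPM, by 1.80 ± 0.12, *Ldha*, at 337 and 415 CPM, by 1.71 ± 0.12 and *Pkm*, at 549.6 and 545 CPM, by 1.32 ± 0.10. *Ldhb* was the member that was lower, at 44.6 and 37.2 CPM (-2.12 ± 0.18, edgeR adjusted p = 9.8e-12). Erythroid cells had 41.3 and 64.0 CPM of *Ldhb*, so the endothelial level may be background as well.

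*Aldoc* in endothelial cells, at 17.0 and 35.0 CPM from 8 and 32 UMIs, was higher by 2.37 ± 0.40, and by 1.39 with stricter gates. *Pgk1*, at 93.4 and 130.1 CPM, lay above the excitatory sums (0.38 ± 0.15, edgeR adjusted p = 0.0377), and its call was lost with no filter on low counts, with doublets removed, with stricter gates and after thinning. The interval was -0.74 to 0.04 for *Hk1* and -0.03 to 0.82 for *Pfkp* (95%, log2). *Pfkp* passed with DESeq2 (0.58, adjusted p = 0.0388) and under 4 other alternatives, and *Hk1* was lower at the mitochondrial limit of 5% (-0.91, adjusted p = 0.0267). *Slc2a1* in glial-fated cells was at 62.7 and 12.2 CPM, uneven in the same direction as *Cldn5* in that gate, and the part of vessel RNA in it was not tested.

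Likeness was described by Pearson's r of log2(CPM + 1) over the 24 sums of 12 classes in 2 libraries, among 7071 genes with a mean of at least 20 CPM. These sums share libraries and depth, and no p is given. They include erythroid cells, in which globin lowers nearly all other genes together. In an alternative chosen after seeing the data, with erythroid sums left out, 6 of 10 members kept their most like gene, and 15 of the 30 genes among the nearest 3 of a member were shared. With endothelial sums left out as well, 0 of 10 members kept their most like gene and 5 of the 30 genes were shared, so the genes named here depend on which classes enter. *Slc2a1* was most like *Bsg* (r = 0.97), *Itm2a* and *Slc38a5*, none of which remained among its nearest 3 without erythroid and endothelial sums. *Aldoc* was most like *Dbi* (r = 0.96), *Plce1* and *Mt2*, and *Gpi1* most like *Pfkl* (r = 0.97), *Cd320* and *Pdia3*. *Ldha* was most like *Rps2* (r = 0.94), *Nme2* and *Josd2*, while *Ldhb* was most like *Pou3f3* (r = 0.94), *Haghl* and *Kif21a*. *Hk1* was most like *Exoc6* (r = 0.96) and *Pfkp* like *Srgap1* (r = 0.89), *Pgk1* like *Hspe1* (r = 0.97), *Aldoa* like *Pdia3* and *Pkm* like *Rps6*.

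Among the members themselves, *Gpi1* and *Aldoa* had r = 0.93 and *Gpi1* and *Ldha* r = 0.91 over the same sums, and 0.91 and 0.91 over the 22 sums without erythroid cells. *Hk1* and *Pfkp* had r = 0.75 with each other (0.77 without erythroid cells), and *Aldoc* and *Pfkp* r = -0.56 (-0.66). *Ldha* and *Ldhb* had r = 0.11, which rested on a pair of classes. It was -0.15 without erythroid cells and 0.57 over the 20 sums without erythroid and endothelial cells, and *Ldha* was high and *Ldhb* low in the endothelial cells left out.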

How the data were processed

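Single cells of the E16.5 mouse cortex were sequenced in 2 WT libraries. The authors deposited raw UMI counts per gene and barcode, without normalization, with lists of barcodes and genes. The submitters' processing notes name Cell Ranger 7.0.0 and mm10, and the file headers name version 7.1.0. The annotation is not given in the sources used here.

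The members and gene lists were chosen with earlier results of these data known. Cells with 1500 to 60000 UMIs and under 10% mitochondrial UMIs were assigned to classes by gates on marker genes, set without the members' values. A cell in several gates (49 and 83 cells) entered none. Doublets were kept, apart from cells with markers of another lineage, and removed in an alternative with Scrublet in scanpy 1.11.5.

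Cells are not replicates, so the UMIs of each class were added up within each library, and the 24 sums of 12 classes entered 1 fit with edgeR 4.0.16 (R 4.3.3): TMM, a minimum of 10 counts in 2 or more sums, quasi-likelihood test, library as block (both classes of a contrast come from the same libraries), and Benjamini-Hochberg adjustment over all genes tested. The cycling contrast used a fit with radial glia split. The standard error is the size of the log2 fold change divided by the square root of F. DESeq2 1.42.0 was an alternative. CPM are UMIs scaled to 1e6 per sum, and its precision is limited by depth and by n = 2. Share intervals are exact (Clopper-Pearson) and cover counting error only. From each list, up to 4 called genes with the largest change were named (10 CPM or more where higher, and 1 direction in both libraries), as were, for each member, the 3 genes with the highest correlation among those with a mean of at least 20 CPM. Promoters and positions come from RefSeq tables of GRCm38.p6, which matched all 10 members. Alternatives were the tool, the normalization, the low-count filter, the block, the classes in the fit, doublets, stricter gates, a mitochondrial limit of 5%, thinning to 1500 UMIs, leaving out each library, and cycling cells alone, the last chosen after seeing the data.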

Additional observations from a re-analysis of the deposited data

Results flagged for a closer look

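The difference between progenitors and neurons was not of the same size on the excitatory and the inhibitory side for 6 members, by a test of the difference itself (edgeR, Benjamini-Hochberg adjusted p, n = 2 libraries). Values are log2, inhibitory minus excitatory. *Ldha* stood at 0.84 (adjusted p = 0.00386), *Hk1* at 1.05 (adjusted p = 0.00389) and *Pfkp* at 1.74 (adjusted p = 0.000475). *Ldhb* stood at -0.65 (adjusted p = 0.000894), *Aldoa* at -0.77 (adjusted p = 0.00334) and *Aldoc* at -2.43 (adjusted p = 0.00074). *Ldha* and *Ldhb*, which code for subunits of the same enzyme, had values of opposite sign. The value of *Ldha* depends on its level in MGE interneurons, which was near that of erythroid cells and may be background. With the cells of highest doublet score removed *Aldoc* stood at -4.00. At the mitochondrial limit of 5% *Hk1* (0.84, adjusted p = 0.124), *Pfkp* (0.97, adjusted p = 0.278) and *Aldoc* (-2.03, adjusted p = 0.0527) were not called, and after thinning *Hk1* (1.56, adjusted p = 0.0889) and *Ldha* (0.73, adjusted p = 0.117) were not. With cycling cells alone on the excitatory side, *Ldhb* (-0.35, adjusted p = 0.124) and *Aldoa* (-0.34, adjusted p = 0.371) were not called.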

How the results depend on the processing

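Of 849 tested member values under 10 alternatives, 798 kept their side of the threshold, 44 lost a call and 7 gained one. The sign changed in 0 of the 562 values of called results and in 39 of the 287 of results that were not called. Of 59 called member results, 34 were called in every alternative run for them. With 1 library left out, which gives no test, the sign changed in 0 of 118 values of called results and in 8 of 62 of those not called, among them *Hk1* between cycling and non-cycling radial glia (-0.72 in both libraries together, 0.53 without replicate 2). Thinning each cell to 1500 UMIs lowered the number of all genes called, from 8788 to 4840 (radial glia against excitatory neurons), 7923 to 4406 (intermediate progenitors), 5513 to 2617 (radial glia against intermediate progenitors), 2214 to 1261 (newborn), 3692 to 2058 (MGE), 5845 to 3226 (GABAergic progenitors), 2868 to 1346 (between the sides), 1347 to 409 (cycling) and 7581 to 3257 (endothelial). Members called went to 3 of 5 between the progenitors, 3 of 5 in newborn neurons, 2 of 6 in MGE interneurons, 3 of 7 in GABAergic progenitors and 1 of 2 in cycling radial glia, and 6 of 10 members kept their highest class. At the mitochondrial limit of 5%, 1057 genes were called in newborn neurons, 1715 between the sides (3 members) and 806 in cycling radial glia. With only the classes of the contrast in the fit, 3434 were called in newborn neurons. With progenitors limited to cycling cells, 2662 genes and 1 member were called between radial glia and intermediate progenitors. Without the library as replicate block, members called were 10, 10, 4, 4, 5, 7, 6, 2 and 8 in the same order of comparisons, so 3 calls were lost. All genes called were then 8581, 7555, 5152, 1745, 3408, 5593, 2633, 1217 and 7485, below the main count in each comparison. The cause of these changes was not tested, beyond the fewer UMIs that thinning leaves and the fewer cells of the stricter limits.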

Other observations

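Some gates had too few cells for a test, and their members are given as values of replicate 1 and replicate 2. Cajal-Retzius-type cells (25 and 42 cells), early neurons of the cortical surface, had *Aldoa* at 229 and 369.6 CPM, above every excitatory neuron sum, with *Gpi1* at 81.3 and 159.5 CPM. *Pfkp* was there at 124 and 61.1 CPM. *Aldoc* was at 1 and 0 UMIs in these cells. Microglia (31 and 86 cells), the immune cells of the brain, had *Aldoa* at 238 and 247 CPM and *Ldha* at 161 and 196 CPM. *Ldhb* was unequal in microglia, at 238 and 108 CPM. Fibroblasts (22 and 101 cells) had *Ldha* at 187 and 274 CPM and *Slc2a1* at 17.7 and 28.4 CPM, far below endothelial cells. Mural cells (9 and 19 cells), which surround vessels, had *Aldoa* at 726 and 291 CPM and *Hk1* at 88.6 and 81.4 CPM, from 5 and 7 UMIs of *Hk1*, above the deep-layer-type neurons in each library. Their *Aldoc* was at 0 and 17 UMIs.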
